A study of Mus musculus with 48 samples.

Results

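The comparison described here set the junction of oesophagus and stomach of pL2 mice with added interleukin-8 (genotype pl2_IL8, 12 months, chow, MRI facility, 3 arrays) against that of pL2 mice without it (genotype pl2, 12 months, chow, MRI facility, 3 arrays). These 6 arrays were chosen by their labels from the 48 of the series, with 1 value per gene, that of the probe set with the highest mean over all arrays. pL2 is a mouse model of Barrett oesophagus, known to express human interleukin-1 beta from a viral promoter in squamous lining, and both groups carried that transgene. Added as context were pl2_IL8 mice at 9 months (chow, MRI), pl2 mice on chow at 12 months from the Freising facility and WT mice on chow at 12 months from MRI, 3 arrays each. Whole tissue of the squamocolumnar junction and cardia was used, so squamous and columnar lining, stroma, muscle and blood vessels all contributed RNA. The labels do not give the promoter of the IL8 construct, the number of founder lines, the sex of the mice or any tamoxifen dose. The study asked whether IL8 overexpression acts on the progression of the disease.

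Interleukin-8 is a chemokine that binds the receptors CXCR1 and CXCR2, draws neutrophils into tissue and is also known to act on endothelial cells, the cells that line blood vessels. Mice have no direct counterpart of the IL8 gene and answer to it through their own Cxcr2. New vessels form when endothelial cells respond to ligands such as VEGF and angiopoietins through the receptors KDR, FLT1 and TEK, and they mature when pericytes and a basement membrane cover them. In inflamed tissue the endothelium also displays adhesion molecules that catch passing leukocytes.

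No gene symbol on the array was Cxcl8 or Il8, so the added gene itself was not measured and the IL8 label was not checked by it. Il1b, the mouse gene, had log2 signals of 5.32, 7.72 and 7.46 in IL8 mice at 12 months, against 7.17, 7.25 and 8.88 in pL2 mice at MRI. The groups overlapped, and the log2 difference was -0.93 ± 0.65 (standard error, as for every log2 difference below; limma adjusted p = 0.485). Correlations between arrays of 1 group lay between 0.981 and 0.985 in the IL8 mice and between 0.971 and 0.986 in the pL2 mice. Xist, a transcript of female cells, was at 10.7 in IL8 array 1 and at 4.30 and 5.76 in the others. It was at 12.17 in pL2 array 1 and at 4.92 and 3.83 in the others, so each group held 1 array of the high kind. The groups added as context differed in it. Xist was at 11.55, 11.35 and 11.49 in IL8 mice at 9 months and at 10.56, 10.87 and 10.9 in WT mice. In pL2 mice at Freising it was at 4.76, 5.59 and 4.58. The mean of 12 hepatocyte markers was 8.65, 4.90 and 6.92 in the IL8 arrays and 6.91, 5.92 and 8.32 in the pL2 arrays. The sample titles of the 2 groups belong to different title series, and title series and genotype cannot be told apart. Nothing in the labels says whether arrays came from separate litters, so p-values measure a spread between samples. That spread was estimated over all 16 groups together and not from the 2 compared groups alone. For Emcn, an endothelial gene described below, the SD was 1.11 in pL2 mice at MRI and 0.17 in IL8 mice at 12 months.

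2 of the 3 pL2 arrays at MRI stood apart from the rest of the series in their vessel genes. The mean of 24 endothelial markers was 6.67, 6.71 and 6.52 in the IL8 arrays and 6.02, 4.78 and 4.91 in the pL2 arrays. Every other array of the 48 lay between 5.55 and 6.80. Results are therefore given below also without each of these arrays and with pL2 array 1 as the only pL2 array at MRI, a setting chosen after the data were seen.

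**Figure D1:**
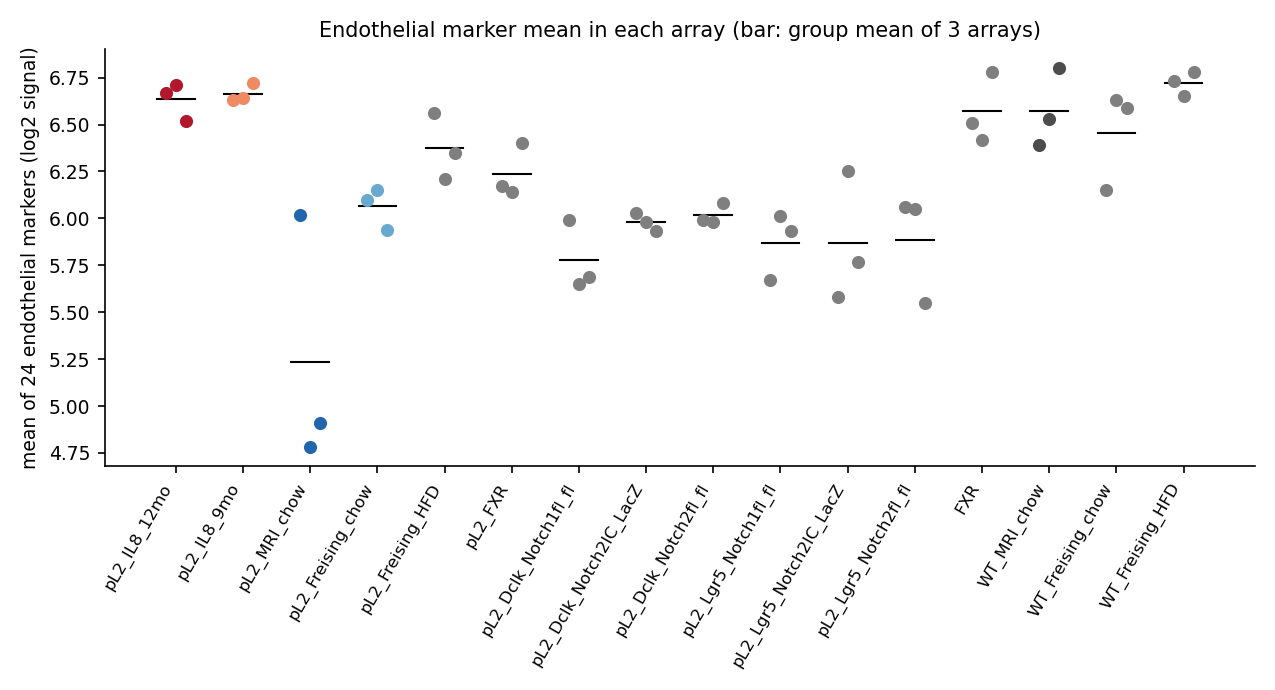
Mean log2 signal of 24 endothelial markers in each array of the 16 groups (points: 3 arrays per group; bar: group mean; y axis in log2 signal). The IL8 group at 12 months lies between 6.52 and 6.71, and pL2_MRI_chow has 1 array at 6.02 and the others at 4.78 and 4.91, the lowest points of the plot.

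Genes of blood vessels were higher in the IL8 mice, and 8 of the 20 largest increases called were endothelial markers. Limma called 278 of 15242 genes at an adjusted p below 0.05 (1.82%), 209 higher (1.37%) and 69 lower (0.453%); 107 were higher and 18 lower by at least 2-fold. The median log2 difference of all genes tested was 0.0488. Of the calls 75.2% were higher, and after cyclic loess scaling 60.6% (169 higher and 110 lower). The count of higher genes was 75, 68 and 132 without IL8 array 1, 2 or 3, and 453, 21 and 72 without pL2 array 1, 2 or 3. The count of lower genes was 10, 18 and 35 in the first 3 of these settings and 166, 2 and 20 in the others. With pL2 array 1 as the only pL2 array 3 genes were called, all higher, and 1629 had an unadjusted p below 0.05. Those 3 were Hmox2 (1.01), Mrpl17 (0.89) and Naa60 (1.05), named here after their values were seen.

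**Figure D2:**
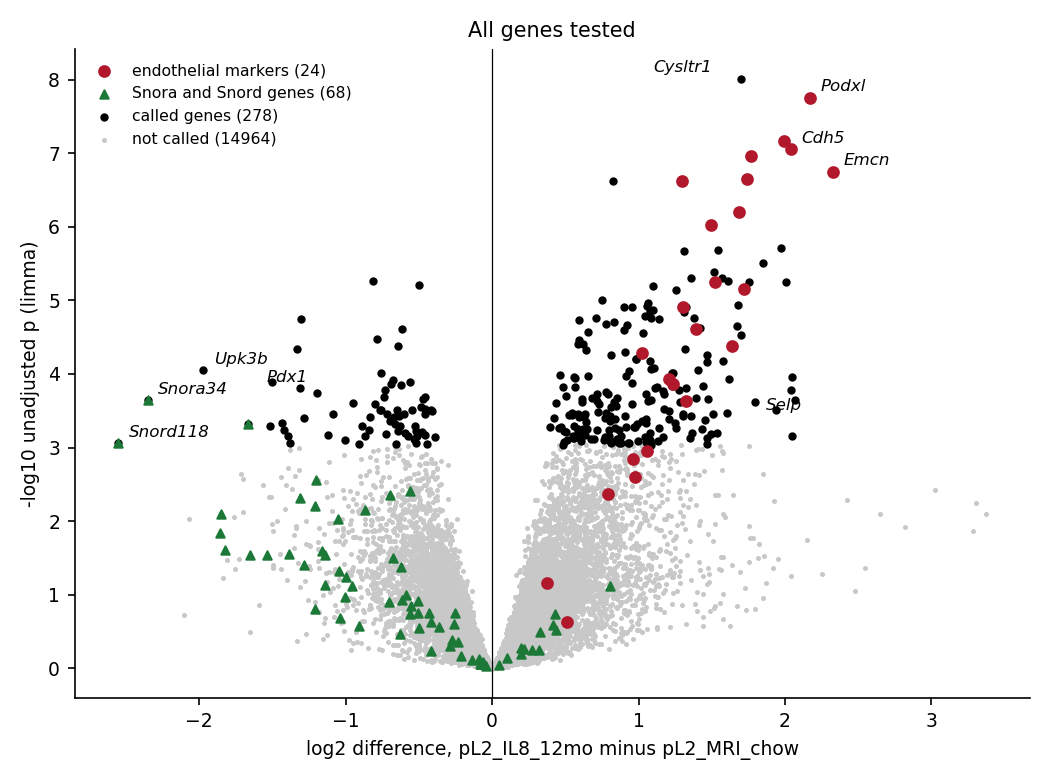
Log2 difference (x axis, IL8 mice at 12 months minus pL2 mice at MRI) against -log10 of the unadjusted limma p (y axis) for 15242 genes. Red points are the 24 endothelial markers, green triangles 68 Snora and Snord genes, black points the 278 called genes and grey points the rest. All 24 red points lie right of 0.

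Of 24 endothelial markers 18 were called higher and none lower, where 1.37% of all genes were called higher. Their median log2 difference was 1.36, against 0.0488 over all genes tested. In 20 of the 24 all 3 IL8 arrays lay above all 3 pL2 arrays, as they did in 14.1% of all genes. The list was chosen with earlier results of these data known, and its members move together, so these counts are descriptions. Since whole tissue was measured, a difference in endothelial cell number and one in RNA per endothelial cell cannot be told apart. Nor does the difference alone say which group had moved. Emcn had means of 8.04 in IL8 mice, 7.96 in WT mice and 5.71 in pL2 mice at MRI, the lowest of the 16 groups. The count fell to 9 without pL2 array 2 and to 11 without pL2 array 3, with medians of 1.19 and 1.21. Against pL2 array 1 alone the median was 0.58 and none was called (limma; 11 had an unadjusted p below 0.05). When the 2 compared groups were fitted alone none was called either (limma; 21 had an unadjusted p below 0.05).

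Emcn encodes endomucin, a sialomucin of the endothelial surface. It reached 7.96, 8.22 and 7.92 in IL8 mice, against 6.95, 5.35 and 4.83 in pL2 mice at MRI. No pL2 array reached the lowest IL8 array, and the difference of 2.33 ± 0.36 (5.02-fold, adjusted p = 0.000404) was the largest increase called. Podxl, a related sialomucin of endothelium and kidney podocytes, stood at 7.09, 6.95 and 6.68 in IL8 mice and at 5.48, 3.74 and 4.98 in pL2 mice. It had the smallest adjusted p of the list (2.17 ± 0.30, adjusted p = 0.000134). Against pL2 array 1 alone the differences were 1.09 for Emcn (adjusted p = 0.319) and 1.42 for Podxl (adjusted p = 0.128).

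Cdh5 (VE-cadherin) and Pecam1 (CD31) hold endothelial cells to each other. Cdh5 measured 8.59, 8.46 and 8.35 in the IL8 arrays and 7.52, 5.37 and 6.39 in the pL2 arrays at MRI, a difference of 2.04 ± 0.30 (4.11-fold, adjusted p = 0.000335). Pecam1 measured 8.06, 8.09 and 7.87 in the IL8 arrays and 7.39, 6.05 and 6.11 in the pL2 arrays (1.49 ± 0.25, adjusted p = 0.00133). In both genes the IL8 arrays lay close together and the spread was in the pL2 arrays, with array 1 nearest to the IL8 mice. Esam, another junction protein, rose by 1.30 ± 0.20 (adjusted p = 0.000404), and its pL2 values of 5.91, 5.26 and 5.37 were less far apart than those of Cdh5. Vwf, the clotting factor stored in endothelial granules, rose by 1.39 ± 0.29 (adjusted p = 0.0072). Plvap, which forms the diaphragms of permeable capillaries, rose by 1.52 ± 0.29, and the matrix protein gene Mmrn2 by 1.74 ± 0.27. Egfl7, Ecscr, Clec14a and She had differences of 1.06, 0.96, 0.98 and 0.79 and did not pass, with adjusted p between 0.0535 and 0.0978.

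**Figure D3:**
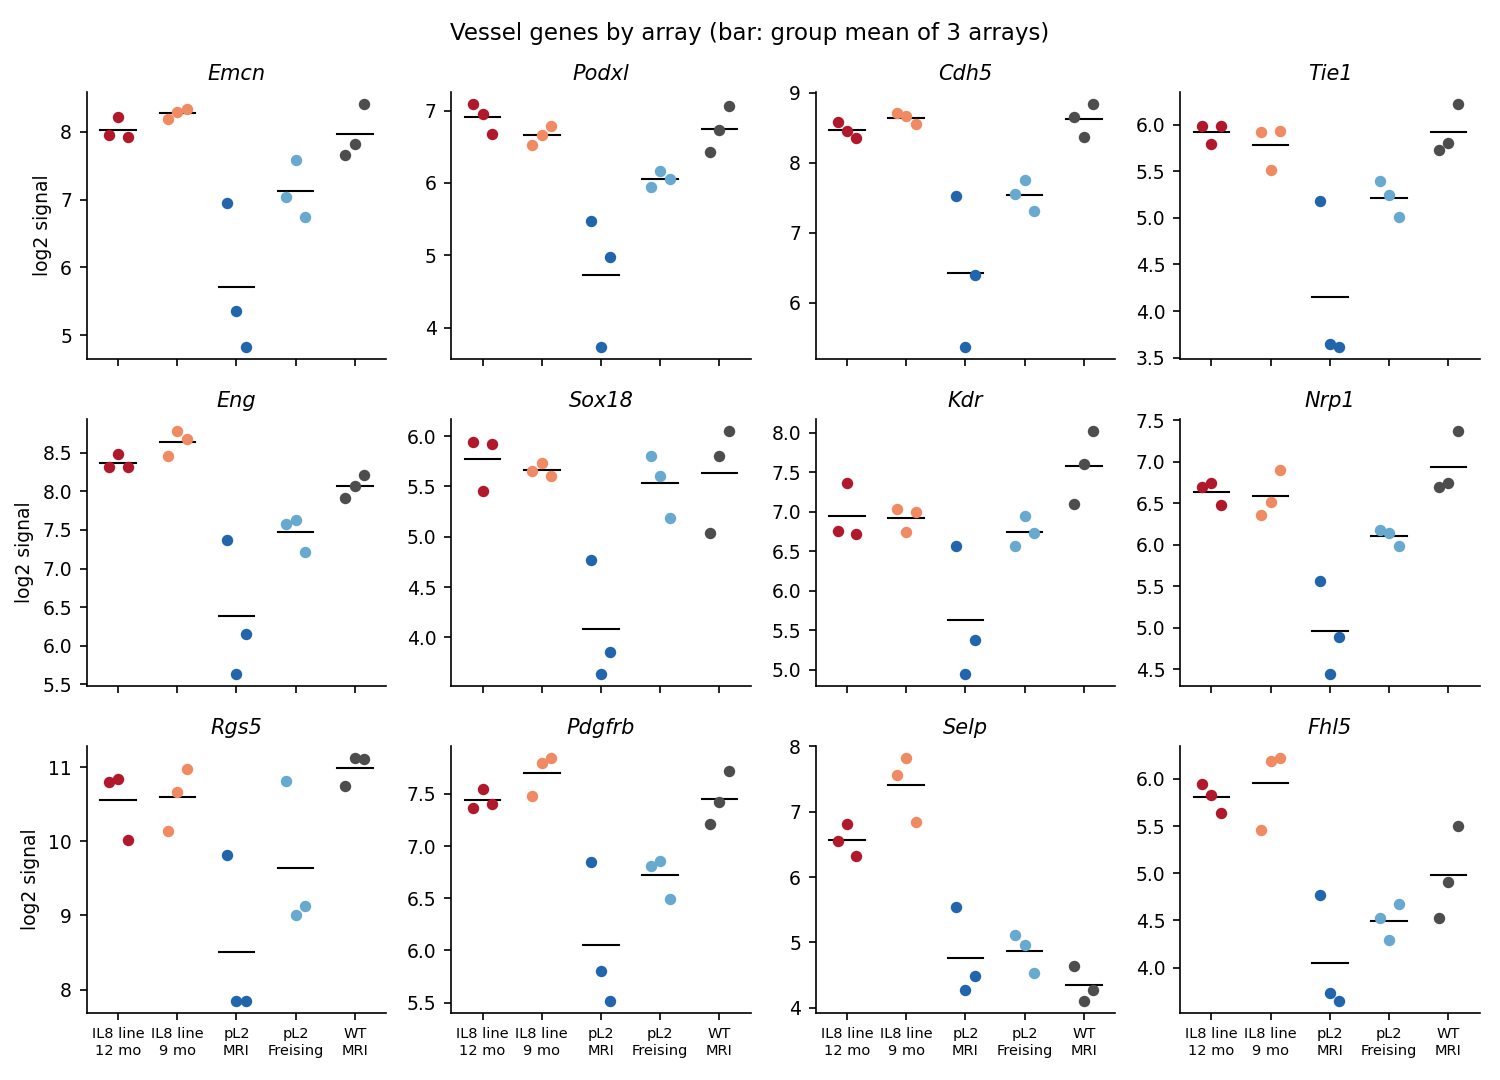
Log2 signal (y axis) of 12 vessel genes in each array of 5 groups (points: arrays; bar: mean of 3). In every panel the 3 arrays of the IL8 mice at 12 months lie above the 3 pL2 arrays at MRI, and in the Selp panel also above the 3 WT arrays and the 3 pL2 arrays at Freising.

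Other genes among the 20 largest increases are not all particular to vessels. Adgrl4, an adhesion receptor of endothelial cells, rose by 1.97 ± 0.35 (adjusted p = 0.0023) and Adgrf5, another of that class, by 1.85 ± 0.33. Cd34, a sialomucin of capillaries and blood progenitors, rose by 1.72 ± 0.33 and Cd300lg, a surface protein of capillary endothelium, by 1.70 ± 0.35. Slc43a3, a transporter of purine bases, had 8.42, 8.48 and 8.49 in IL8 mice, against 7.29, 6.03 and 6.06 in pL2 mice (2.01 ± 0.38, adjusted p = 0.00378). Cysltr1, a receptor for the leukotrienes that make vessels leak, had 5.07, 5.34 and 4.93 in IL8 mice and 3.67, 3.55 and 3.03 in pL2 mice. Here all 3 pL2 arrays were low, below the median signals of the arrays, which ran from 4.03 to 4.27. The difference was 1.70 ± 0.23 (adjusted p = 0.000134), or 1.44 against pL2 array 1 alone.

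Of 21 angiogenic receptors and adaptors 8 were higher and none lower (median 0.76), where 1.37% of all genes were higher. Of the 8, 5 (Kdr, Flt1, Tek, Tie1 and Eng) are also in the endothelial list. The receptors for VEGF rose, Kdr by 1.32 ± 0.32 (adjusted p = 0.0272) and Flt1, which also acts as a decoy, by 1.21 ± 0.28 (adjusted p = 0.0197), as did their co-receptor Nrp1 (1.67 ± 0.34, adjusted p = 0.00684). Kdr had 6.76, 7.37 and 6.72 in IL8 mice and 6.56, 4.95 and 5.37 in pL2 mice, so pL2 array 1 lay just under the IL8 arrays. Tek, the angiopoietin receptor, rose by 1.24 ± 0.29 and its partner Tie1 by 1.77 ± 0.27. Tie1 had 5.99, 5.79 and 5.98 in IL8 mice, against 5.18, 3.65 and 3.62 in pL2 mice. Eng, a co-receptor for TGF-beta and BMP9, rose by 1.99 ± 0.29, and S1pr1, a receptor for the lipid sphingosine 1-phosphate that steadies vessel walls, by 1.58 ± 0.35. Flt4, the receptor of lymphatic vessels, differed by 0.72 ± 0.31 (adjusted p = 0.223), and none of 6 lymphatic markers tested was called (limma; 1 had an unadjusted p below 0.05).

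The ligands of these receptors showed fewer changes, 2 higher and none lower of 17 (median 0.31), where 1.37% of all genes were higher. Cxcl12, a chemokine that draws progenitor cells and acts on CXCR4, rose by 1.54 ± 0.41 (adjusted p = 0.0433), and Sema3g, a semaphorin of arterial endothelium, by 0.98 ± 0.22 (adjusted p = 0.0136). Vegfa, the main ligand of KDR, was at 8.04, 8.63 and 8.25 in IL8 mice and at 8.90, 8.86 and 8.95 in pL2 mice at MRI. All 3 IL8 arrays were below all 3 pL2 arrays, but the difference of -0.60 ± 0.18 did not pass (adjusted p = 0.0683). Pgf, a relative of VEGF, differed by 0.85 ± 0.26 (adjusted p = 0.0785) and Thbs1, an inhibitor of vessel growth, by 1.41 ± 0.39 (adjusted p = 0.0532).

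Of 23 transcription factors of endothelium tested 4 were higher and none lower (median 0.53), where 1.37% of all genes were higher. Sox18 and Erg are also in the endothelial list. Sox18, a factor of developing vessels, had 5.94, 5.46 and 5.92 in IL8 mice and 4.77, 3.64 and 3.85 in pL2 mice at MRI (1.69 ± 0.28, adjusted p = 0.000958). Erg, an ETS factor that maintains endothelial identity, rose by 1.03 ± 0.22 (adjusted p = 0.0117). Gata2, which is also needed in blood progenitors and mast cells, rose by 1.47 ± 0.32 (adjusted p = 0.0141) and Hey1, a Notch target of arteries, by 1.26 ± 0.33 (adjusted p = 0.0402). Mef2c and Hey2 had differences of 1.25 and 0.98 that did not pass.

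Because endothelial genes are known to carry sites for ETS factors such as ERG, promoters of the called endothelial markers were searched. RefSeq promoters (GRCm38.p6, a window that ends shortly after the start of the gene) were found for 9 of the 18 called markers, 11 promoters in all. The letters CAGGAAG, an ETS core with its flanks, were present on either strand in promoters of Cd34, Emcn, Erg and Robo4. That was 36.4% of the 11 promoters, against 13.3% of all 32851 promoters of that length. The forkhead letters TGTTTAC were in none of the 11, against 3.6% of all, and the GATA letters AGATAA in 18.2%, against 11.2%. A match of letters is a description and not a site. Both strands were searched for each. The promoters of Emcn (chr3:137340828-137341127), Cd34 (chr1:194938571-194938870) and Robo4, a guidance receptor of endothelium that rose by 1.31 ± 0.26 (chr9:37401722-37402021), are shown as examples of genes that passed and hold the match. All run on the plus strand. Erg, which runs on the minus strand, also passed and holds the match 40 bases before its start, and its promoter is not shown. Capitals mark CAGGAAG or, where the match is on the other strand, its complement CTTCCTG, which begins 174, 142 and 50 bases before the start for Emcn, Cd34 and Robo4.
Emcn: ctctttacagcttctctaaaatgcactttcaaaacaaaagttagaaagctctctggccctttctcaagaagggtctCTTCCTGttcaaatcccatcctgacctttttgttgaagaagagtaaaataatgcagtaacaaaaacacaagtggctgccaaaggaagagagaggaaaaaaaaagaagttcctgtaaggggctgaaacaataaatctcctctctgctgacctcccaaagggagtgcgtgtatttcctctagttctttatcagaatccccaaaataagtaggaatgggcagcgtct
Cd34: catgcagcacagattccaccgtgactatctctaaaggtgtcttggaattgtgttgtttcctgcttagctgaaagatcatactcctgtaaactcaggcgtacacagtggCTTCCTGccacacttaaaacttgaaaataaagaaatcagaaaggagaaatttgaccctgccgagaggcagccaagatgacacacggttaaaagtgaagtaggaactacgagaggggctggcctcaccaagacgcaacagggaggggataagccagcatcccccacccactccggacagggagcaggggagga
Robo4: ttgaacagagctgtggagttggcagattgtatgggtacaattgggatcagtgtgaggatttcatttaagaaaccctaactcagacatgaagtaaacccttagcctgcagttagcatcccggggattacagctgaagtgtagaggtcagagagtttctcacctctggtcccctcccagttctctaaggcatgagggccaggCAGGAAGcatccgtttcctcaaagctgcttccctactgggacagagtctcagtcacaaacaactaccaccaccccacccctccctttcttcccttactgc

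Adhesion genes of the vessel wall were higher, 9 of 15 tested and none lower (median 1.09), where 1.37% of all genes were higher. Of the 9, 4 (Pecam1, Cd34, Podxl and Esam) are also in the endothelial list. Selp encodes P-selectin, which endothelium and platelets display on activation to let leukocytes roll. It had 6.55, 6.82 and 6.33 in IL8 mice at 12 months, against 5.54, 4.28 and 4.48 in pL2 mice at MRI, a difference of 1.80 ± 0.44 (3.47-fold, adjusted p = 0.0276). Vcam1, the endothelial ligand of the leukocyte integrin VLA-4, rose by 1.09 ± 0.30 (adjusted p = 0.0499) and Jam2, a junction molecule that leukocytes bind, by 1.48 ± 0.36 (adjusted p = 0.027). Ackr1, which carries chemokines across venules, IL8 among them, rose by 1.13 ± 0.26 (adjusted p = 0.0224), with 5.06, 5.53 and 5.38 in IL8 mice and 4.74, 3.72 and 4.13 in pL2 mice. Cd99l2 rose by 0.81 ± 0.20 (adjusted p = 0.0331). Icam1 overlapped between the groups at 0.26 ± 0.30 (adjusted p = 0.72). Against pL2 array 1 alone the median of the list was 0.37, none was called and 5 had an unadjusted p below 0.05.

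Selp was called against pL2 mice at both facilities and against WT mice. Its difference was 1.70 ± 0.44 against pL2 mice at Freising (adjusted p = 0.0441), where the arrays had 5.11, 4.96 and 4.54, and 2.22 ± 0.44 against WT mice (adjusted p = 0.00107), where they had 4.64, 4.11 and 4.28. IL8 mice at 9 months had 7.56, 7.82 and 6.85. Among the 16 groups the IL8 mice at 12 months ranked 3 for Selp, with a mean of 6.57, behind the 9-month IL8 mice (7.41) and pL2_Freising_HFD (6.68 ± 0.89, SD). Other pL2 groups without IL8 came close, pL2_FXR at 6.33, pL2_Lgr5_Notch2IC_LacZ at 6.28 and pL2_Dclk_Notch2IC_LacZ at 6.25. The remaining Notch groups had means from 5.47 to 5.78. The pL2 groups compared here, on chow at MRI and Freising, had the lowest pL2 means, 4.77 and 4.87. Against pL2 array 1 alone the difference was 1.02 (adjusted p = 0.585). Fhl5, a LIM-domain cofactor, was also called against pL2 mice at both facilities, with 5.95, 5.83 and 5.64 in IL8 mice, 4.77, 3.73 and 3.65 in pL2 mice at MRI (1.76 ± 0.33, adjusted p = 0.00378) and 4.53, 4.29 and 4.67 in pL2 mice at Freising (1.31 ± 0.33, adjusted p = 0.0429). WT mice had 4.53, 4.91 and 5.5, above pL2 mice in their mean, and the difference from them of 0.83 ± 0.33 did not pass (adjusted p = 0.0775). The calls of Selp and Fhl5 against pL2 mice at Freising depended on single arrays. Without IL8 array 1 or without Freising array 3 no gene was called in that comparison.

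Of 9 pericyte and mural markers tested 2 were higher and none lower (median 0.83). Over all genes 1.37% were higher, the share to set beside each list of this paragraph. Rgs5, a brake on G protein signals in pericytes, had 10.80, 10.84 and 10.02 in IL8 mice and 9.81, 7.85 and 7.85 in pL2 mice at MRI (2.05 ± 0.47, adjusted p = 0.0195), and its second probe set gave 1.70. Pdgfrb, the PDGF receptor that recruits pericytes, rose by 1.38 ± 0.28 (adjusted p = 0.00621). Cspg4, Kcnj8 and Abcc9, other pericyte genes, had differences of 0.62, 0.69 and 0.99 that did not pass. Of 14 basement membrane genes 2 were higher (median 0.90), Col15a1 by 1.08 ± 0.21 (adjusted p = 0.00572) and Sparc by 0.93 ± 0.26 (adjusted p = 0.0493), while the type IV collagen genes Col4a1 and Col4a2 had 1.01 and 0.97 and did not pass (adjusted p = 0.0564 and 0.0629). Of 17 fibroblast and matrix genes 2 were higher (median 0.86), Sparc and the fibrillar collagen gene Col3a1 (1.02 ± 0.26, adjusted p = 0.0361). Timp3, an inhibitor of matrix proteases, rose by 2.07 ± 0.50 (adjusted p = 0.0271) and Aspn, a small matrix proteoglycan, by 2.04 ± 0.49 (adjusted p = 0.0236).

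Fibroblast and matrix genes were low in the same pL2 arrays as the vessel genes. The mean of the 17 fibroblast and matrix genes was 7.45, 7.66 and 7.5 in the IL8 arrays and 7.39, 6.48 and 6.31 in the pL2 arrays. None of 12 smooth muscle markers was called (median 0.53; limma, 1 with an unadjusted p below 0.05), and their mean was 8.76, 8.79 and 7.57 in the IL8 arrays and 9.09, 7.09 and 7.36 in the pL2 arrays, so IL8 array 3 lay near the low pL2 arrays. Skeletal muscle markers had a median of -0.53, and their mean was 3.57, 3.84 and 3.64 in the IL8 arrays and 4.87, 3.89 and 3.77 in the pL2 arrays. The part of these tissues in the vessel result was not tested. Squamous suprabasal markers had means of 9.85, 9.65 and 9.53 in the IL8 arrays and 9.33, 9.36 and 9.21 in the pL2 arrays, and with squamous and skeletal muscle means as covariates 22 endothelial markers were called. A score of sex-linked transcripts as a covariate left 18 called. When 10 arrays of the series rich in liver or intestinal transcripts (marker mean over 8) were dropped, IL8 array 1 and pL2 array 3 among them, 5 were called (median 1.23).

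**Figure D4:**
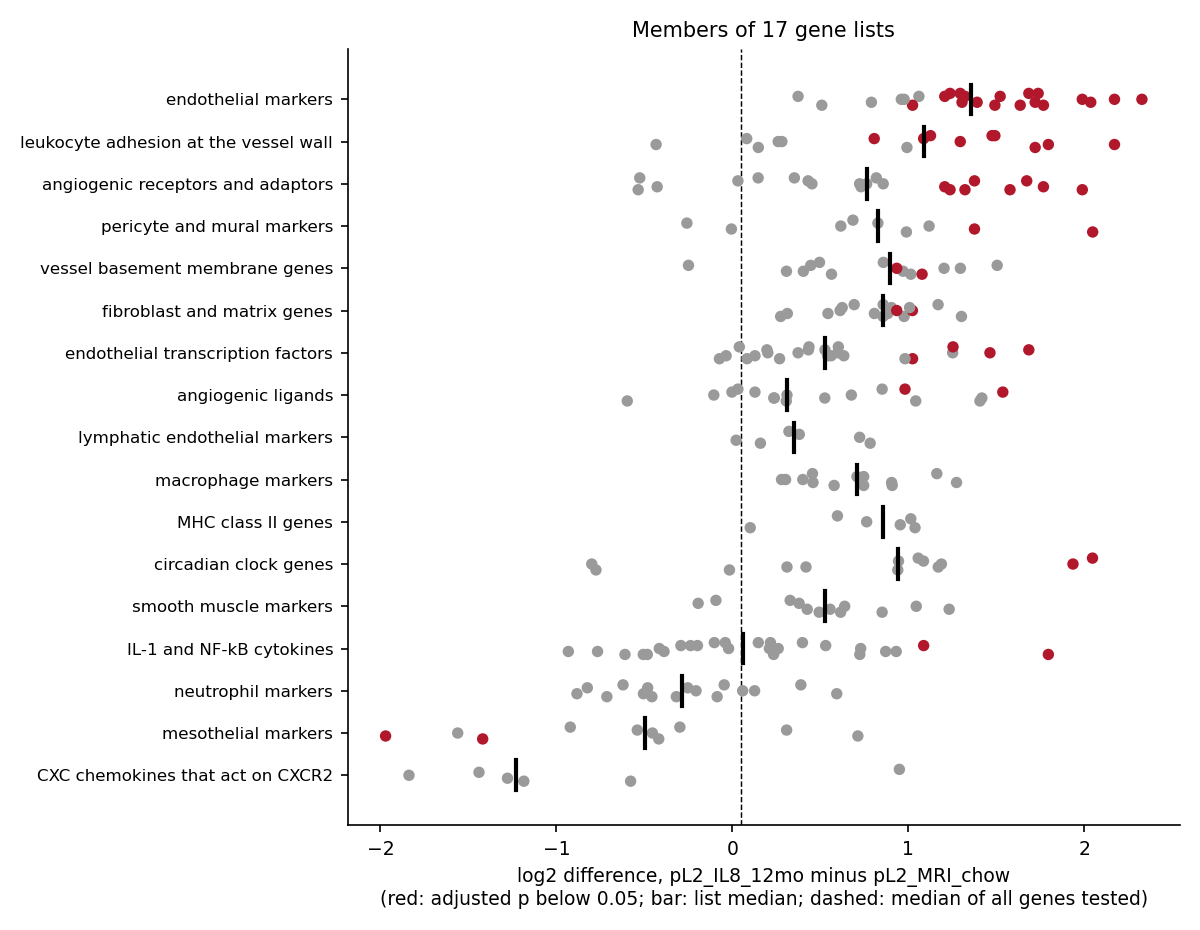
Log2 differences (x axis, IL8 mice at 12 months minus pL2 mice at MRI) of the members of 17 gene lists (rows). Red points passed at an adjusted p below 0.05, grey points did not, bars are list medians and the dashed line is the median of all genes tested. The endothelial list has the highest median (1.36) and the CXCR2 ligands the lowest (-1.23).

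Neither Cxcr1 nor Cxcr2 nor any of the 6 mouse ligands listed for CXCR2 was called. Of 8 CXC chemokine receptor and signalling genes tested 1 was higher, the chemokine carrier Ackr1 described above, where 1.37% of all genes were higher. Cxcr2 had 7.43, 7.56 and 7.31 in IL8 mice and 6.72, 7.07 and 8.33 in pL2 mice at MRI, with IL8 arrays inside the pL2 range (0.06 ± 0.49, adjusted p = 0.972). Cxcr1 overlapped too, with a difference of 0.42 ± 0.47 (adjusted p = 0.707). Of the 6 mouse chemokines that act on CXCR2 none was called, and 5 of the 6 differences were below 0 (median -1.23; limma, 1 with an unadjusted p below 0.05). Cxcl5, an epithelial chemokine of this group, had 7.60, 7.65 and 7.70 in IL8 mice, against 7.62, 9.77 and 9.88 in pL2 mice at MRI. The difference of -1.44 ± 0.69 (adjusted p = 0.282) rested on pL2 arrays 2 and 3, the arrays with low vessel genes, and array 1 lay at the level of the IL8 mice. Cxcl3 had 3.56, 3.52 and 5.29 in IL8 mice and 3.55, 6.33 and 8.01 in pL2 mice (-1.84 ± 0.94, adjusted p = 0.316). Against pL2 array 1 alone the median of the 6 was 0.31.

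None of 16 neutrophil markers tested was called (median -0.29; limma, 0 with an unadjusted p below 0.05), and 4 of the 16 differences were above 0. S100a9, a calprotectin subunit of neutrophils and stressed epithelium, had 8.47, 8.36 and 8.52 in IL8 mice and 9.14, 9.67 and 9.19 in pL2 mice at MRI. The IL8 arrays were all lower, but the difference of -0.88 ± 0.61 did not pass (adjusted p = 0.485). Csf3r, the G-CSF receptor, had 5.06, 6.76 and 6.17 in IL8 mice and 6.49, 6.30 and 7.67 in pL2 mice. Of 26 IL-1 and NF-kB genes 2 were higher, Selp and Vcam1, both made by endothelium, and the median was 0.06. Over all genes 1.37% were higher. Tnfaip3 and Nfkbiz, feedback genes of NF-kB, had differences of -0.77 ± 0.29 and -0.48 ± 0.21 that did not pass (adjusted p = 0.151 and 0.23).

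Against WT mice, which lack the interleukin-1 beta transgene, 9 of the 16 neutrophil markers were higher in IL8 mice, where 9.62% of all genes were higher. The median of the 16 was 1.52, against 0.0359 over all genes tested. Cxcr2 rose by 1.53 (adjusted p = 0.0287) and Il1b by 1.87 (adjusted p = 0.0424). That comparison changes both genes at once, so IL8 and interleukin-1 beta cannot be told apart in it.

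Genes lower in IL8 mice included markers of mesothelium, the covering of the outer gut wall. Upk3b, a uroplakin gene of mesothelium, had 3.40, 3.48 and 3.44 in IL8 mice and 4.73, 6.45 and 5.05 in pL2 mice at MRI (-1.97 ± 0.45, adjusted p = 0.0175). Msln, which encodes mesothelin, had 3.38, 3.62 and 3.53 in IL8 mice and 4.53, 5.54 and 4.72 in pL2 mice (-1.42 ± 0.38, adjusted p = 0.0412). In both genes the IL8 values lay below the array medians of 4.03 to 4.27, so the sizes of these differences are uncertain. Upk3b and Msln were the 2 called of 10 mesothelial markers (median -0.50), where 0.453% of all genes were lower. Both were lower still against WT mice, Upk3b by -3.09 (adjusted p = 6.37e-05) and Msln by -2.39 (adjusted p = 0.000123), and against pL2 mice at Freising they differed by -0.79 and -0.03 with no call. How much outer wall each sample held was not recorded, and its part in these differences was not tested.

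Pdx1, a homeobox factor of distal stomach, duodenum and pancreas, had 4.94, 3.93 and 5.14 in IL8 mice, against 5.2, 5.94 and 6.47 in pL2 mice at MRI (-1.20 ± 0.29, adjusted p = 0.0246). Wnt11, a secreted Wnt ligand, had 5.81, 5.37 and 6.32 in IL8 mice and 6.43, 7.42 and 7.51 in pL2 mice (-1.28 ± 0.33, adjusted p = 0.0343). Their lists did not move with them. Pdx1 was the member called among 11 foregut and hindgut transcription factors, of which 6 differences were above 0 (median 0.08), and Wnt11 among 17 columnar stem cell and Wnt target genes, of which 15 were above 0 (median 0.36). Of 11 gastric neck, chief and parietal markers all differences were above 0 (median 0.48) and none was called (limma; 2 had an unadjusted p below 0.05). In both genes pL2 array 1 lay close to the IL8 arrays, and pL2 mice at MRI had the highest mean of the 16 groups. Against pL2 array 1 alone Pdx1 differed by -0.53 (adjusted p = 0.674). Atp10b, a lipid flippase (-1.33 ± 0.29), Plac8 (-1.32 ± 0.31) and Rilpl2, a factor of cilia (-1.30 ± 0.26), were lower by similar amounts, and pL2 mice at MRI ranked first of 16 groups for these too. Omp fell by 1.52 on the log2 scale, and Phgr1 by 1.5, with a second probe set of Phgr1 at -0.58. Lgr5, a marker of columnar stem cells, differed by 1.07 ± 0.47 (adjusted p = 0.232) and Dclk1, a marker of tuft cells, by -0.30 ± 0.22 (adjusted p = 0.514).

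**Figure D5:**
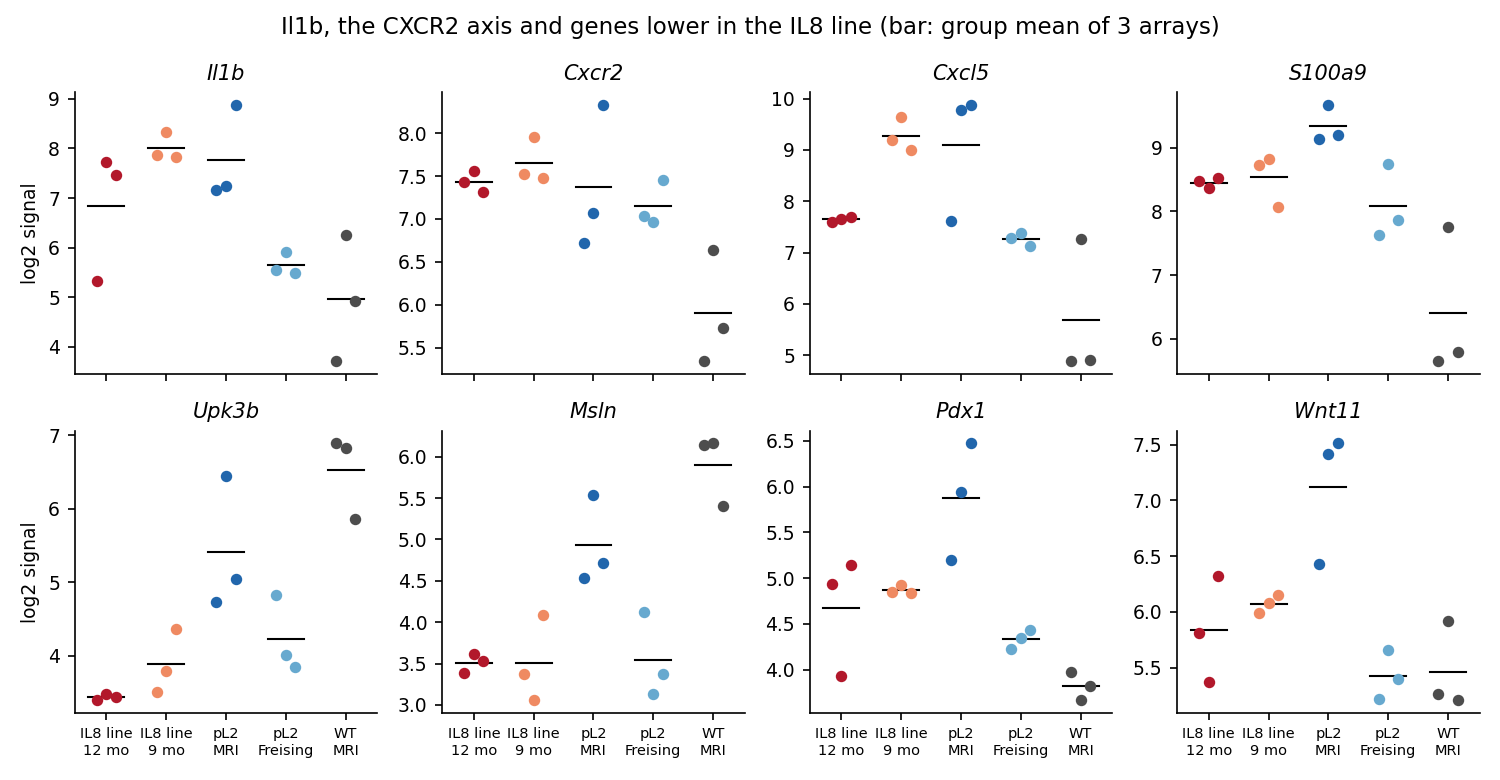
Log2 signal (y axis) of 8 genes in each array of 5 groups (points: arrays; bar: mean of 3). Il1b and Cxcr2 overlap between the IL8 mice at 12 months and the pL2 mice at MRI, Cxcl5 is high in 2 pL2 arrays, and Upk3b, Msln, Pdx1 and Wnt11 are lower in every IL8 array at 12 months than in every pL2 array at MRI.

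Small RNAs formed another part of the decreases. Snord118, the U8 RNA needed to mature large-subunit ribosomal RNA, had 3.48, 2.44 and 2.77 in IL8 mice and 6.06, 5.45 and 4.84 in pL2 mice at MRI (-2.55 ± 0.70, adjusted p = 0.0493). Its IL8 values lay below the array medians of 4.03 to 4.27. Snora34 and Snora41, guides for pseudouridine in ribosomal RNA, fell by 2.35 and 1.67 on the log2 scale (adjusted p = 0.0271 and 0.0376), with every IL8 array below every pL2 array, as in 7.34% of all genes. The 68 Snora and Snord genes tested were named as a group after these values were seen. Of them 3 were lower and none higher, where 0.453% of all genes were lower. In 18 of the 68 every IL8 array lay below every pL2 array, against 7.34% of all genes. Differences were below 0 in 56, and the median was -0.56, against 0.0488 over all genes tested. Rps12, a ribosomal protein gene of the kind that has near-identical copies, fell by 1.08 on the log2 scale. RNA integrity was not recorded, and its part in these values was not tested.

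Mir1981, the gene of miR-1981, had 3.21, 3.94 and 4.08 in IL8 mice, against 5.09, 4.95 and 5.38 in pL2 mice at MRI (-1.40 ± 0.38, adjusted p = 0.0447). All 3 IL8 arrays were lower, and the 2 groups held the lowest and the highest mean of the 16. The IL8 values lay near or below the array medians of 4.03 to 4.27. It was the microRNA gene among the 15 largest decreases, so its arms are shown; which form the array measured is not stated. RefSeq places them on the minus strand of chromosome 1 in GRCm38.p6, the 3p arm at chr1:184822409-184822429 and the 5p arm at chr1:184822465-184822488. Capitals mark the seed, bases 2 to 8, which the arms do not share.
miR-1981-3p: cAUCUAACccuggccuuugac
miR-1981-5p: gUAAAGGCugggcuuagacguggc

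Of 13 clock genes 2 were higher and none lower (median 0.94), where 1.37% of all genes were higher, and 10 of the 13 differences were above 0. Dbp, an output factor of the clock, had 8.26, 7.17 and 7.09 in IL8 mice and 6.49, 5.05 and 4.83 in pL2 mice at MRI (2.05 ± 0.55, adjusted p = 0.0447). Ciart, a repressor of the clock, had 7.19, 6.71 and 6.99 in IL8 mice and 5.26, 5.10 and 4.72 in pL2 mice (1.94 ± 0.48, adjusted p = 0.0316). For Dbp the pL2 mice at MRI had the lowest mean of the 16 groups (5.46), and WT mice at MRI (8.21) lay above IL8 mice (7.5). For Ciart the means were 6.96 in IL8 mice and 6.52 in WT mice. The median of the clock list was 0.03 against WT mice and 0.18 against pL2 mice at Freising. No clock gene was called in either, where 17.1% and 1.45% of all genes were called. The labels give no hour of tissue collection, and its part in these values was not tested.

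Against WT mice the endothelial list had a median close to that of all genes, while the lists of mural cells, basement membrane and lymphatics had medians below 0. Against WT mice limma called 2613 genes (17.1%), 1466 higher (9.62%) and 1147 lower (7.53%), 56.1% of them higher, or 43.5% after cyclic loess; the count was 1424 without IL8 array 3 and 1205 without WT array 1. With the levels of squamous and skeletal muscle markers added to the model 14 genes were called. Every WT array was high in Xist, unlike the IL8 arrays, and with a sex-linked score in the model 1702 genes were called. Of the 24 endothelial markers 1 was called higher, Vwf at 0.84 (adjusted p = 0.0389), and the median was 0.09. Emcn had 7.66, 7.82 and 8.41 in WT mice, a difference of 0.07 ± 0.36 (adjusted p = 0.92). Of 14 basement membrane genes 8 were lower (median -0.85), of 9 pericyte and mural markers 2 were lower (median -0.88), and none of 6 lymphatic differences was above 0 (median -0.64). Of 12 smooth muscle markers 7 were lower (median -1.96).

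Against pL2 mice at Freising limma called 221 genes (1.45%), 143 higher (0.938%) and 78 lower (0.512%), 64.7% of them higher, or 38.5% after cyclic loess. Of the endothelial markers Mmrn2 was called (1.04, adjusted p = 0.0453), 23 of 24 differences were above 0 and the median was 0.62. Cdh5 had 7.55, 7.75 and 7.31 in those mice, and the difference of 0.93 ± 0.30 did not pass (adjusted p = 0.102). The facility differs along with IL8 in this comparison, and the 2 cannot be told apart. No Freising array was high in Xist, unlike IL8 array 1, and with a sex-linked score in the model 237 genes were called. The count was 0, 361 and 1 without IL8 array 1, 2 or 3 and 13, 2 and 0 without Freising array 1, 2 or 3; in the settings with none called, limma gave 1790 and 2163 genes at an unadjusted p below 0.05.

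IL8 mice at 9 months, set against the same pL2 mice at MRI, gave 1044 calls (6.85%), 827 higher (5.43%) and 217 lower (1.42%); 79.2% were higher. Of the endothelial markers 21 were higher and none lower (median 1.48). Emcn had 8.19, 8.30 and 8.34 and Cdh5 8.71, 8.67 and 8.56 in these mice, close to the values at 12 months. Dbp had 7.5, 5.21 and 5.40 at 9 months, with no call against pL2 mice (0.58, adjusted p = 0.578). Both IL8 groups share the pL2 arrays, so the 2 comparisons are not independent, and age and IL8 cannot be told apart at 9 months. Every array at 9 months was high in Xist, as was pL2 array 1 alone of the pL2 arrays at MRI. With a sex-linked score in the model 819 genes were called at 9 months. The count was 333 without pL2 array 2, 585 without pL2 array 3, 394 and 479 without array 2 or 3 of the 9-month mice and 19 with pL2 array 1 as the only pL2 array.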

How the data were processed

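RNA from whole tissue was hybridised to Affymetrix arrays, 1 per sample, 48 in all. The authors deposited log2 values per probe set, made by RMA in Affymetrix Expression Console, per the submitters' processing notes; versions and genome build are not given in the sources used here. Of 34390 probe set entries 23521 carried 1 gene symbol in GEO's platform annotation, giving 22180 symbols with the entry of highest mean kept; the 1814 with several symbols and 9055 with none were left out.

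Groups came from the labels. A gene was tested where it exceeded an array's median on 3 or more arrays (15242 genes), with limma 3.58.1 in R 4.3.3, in 1 model with a mean for each of 16 groups of 3 (32 residual degrees of freedom), two-sided, with Benjamini-Hochberg adjustment over all genes of a comparison; an adjusted p below 0.05 was called. The procedure was tested on simulated data. The number of arrays limits the precision. Of 564 entries in 41 gene lists 532 matched the array. The members and lists were chosen with earlier results of these data known. Genes named were Il1b, Cxcr1, Cxcr2, Lgr5 and Dclk1, the 20 largest increases and 15 largest decreases called (no predicted or clone names), called list members and up to 4 others per list by smallest p; others are marked as named after their values were seen. Alternatives were no filter or a stricter one (above 6 in 3 arrays of the compared groups), all probe sets averaged, the compared groups alone, limma's array quality weights, cyclic loess, a trended and robust variance prior, a sex-linked score, a title suffix or tissue marker means as covariates, dropping arrays rich in liver or intestinal transcripts, and leaving out each array. Added after the data were seen were the count of endothelial markers in each alternative and pL2 array 1 as the only pL2 array at MRI.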

Additional observations from a re-analysis of the deposited data

How the results depend on the processing

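No paired analysis was possible because the labels give no replicate numbers that pair arrays across groups. Fitting the 2 compared groups alone called 0 genes higher and 0 lower between IL8 mice at 12 months and pL2 mice at MRI (limma; 2480 at an unadjusted p below 0.05) and 0 endothelial markers (21 of 24 at an unadjusted p below 0.05), 6 against pL2 mice at Freising and 353 at 9 months, where 209, 69, 18, 221 and 1044 were called in the fit of all groups. All 59 named genes that were called lost the call there, and 4 to 49 of them did with 1 array left out; no called value changed sign. With pL2 array 1 as the only pL2 array at MRI the counts were 3 higher, 0 lower, 0 endothelial markers (11 at an unadjusted p below 0.05) and 19 at 9 months. Array quality weights, whose estimation stopped before it converged, gave 2498 higher, 1619 lower, 1512 against Freising and 5713 at 9 months. The weights of pL2 arrays 1, 2 and 3 at MRI were 0.395, 5.72 and 0.744. The largest thus fell on array 2, the array with the lowest endothelial marker mean (4.78). Without arrays high in liver or intestinal markers the counts were 21 higher, 9 lower, 5 endothelial markers, 25 against Freising and 1407 against WT mice (2613 in the fit of all arrays). Squamous and skeletal muscle means as covariates gave 495 higher, 223 lower and 14 against WT mice. Cyclic loess gave 110 lower, a sex-linked score 1702 against WT mice, no filter 84 and a title suffix term 99 against Freising. Leaving out 1 array at a time gave 21 to 453 higher, 2 to 166 lower, 9 to 22 endothelial markers, 0 to 361 against Freising, 1205 to 2123 against WT mice and 333 to 1375 at 9 months. The cause of these shifts was not tested.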

Other observations

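Late cornified envelope genes, which strengthen the outermost squamous cells, were among the largest differences that limma did not call. Their members were picked out after the values were seen. Lce3e had 9.97, 10.10 and 9.21 in IL8 mice at 12 months, against 6.74, 7.12 and 5.51 in pL2 mice at MRI (3.30 ± 1.12, adjusted p = 0.11). Lce3d had 9.64, 9.90 and 8.92 in IL8 mice, 7.02, 6.98 and 5.39 in pL2 mice at MRI (3.02 ± 0.97, adjusted p = 0.0912) and 5.63, 5.95 and 5.64 in WT mice. Of 17 Lce genes tested all differences from pL2 mice at MRI were above 0 (median 1.75), and in 13 the IL8 arrays all lay above the pL2 arrays, which was so for 14.1% of all genes. The median was 0.24 against pL2 mice at Freising and 0.68 against WT mice, where 3 of the 17 and 9.62% of all genes were called higher. In IL8 mice at 9 months, set against pL2 mice at MRI, it was -0.04. Scgb3a1, a secretoglobin of airway-like glands also named after its values were seen, had 5.80, 10.01 and 8.60 in IL8 mice at 12 months and 5.21, 5.14 and 6.12 in pL2 mice at MRI (2.65 ± 0.94, adjusted p = 0.128), so 1 IL8 array lay within the pL2 range. Scgb1a1, another secretoglobin gene named in the same way, differed by 3.28 ± 1.26 (adjusted p = 0.162), and by 0.01 from WT mice.

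Macrophage markers had a median difference of 0.71 with none of 13 called (limma; 7 at an unadjusted p below 0.05), and all 13 differences were above 0. C1qb, a complement subunit made by tissue macrophages, had 7.96, 7.87 and 7.82 in IL8 mice and 7.17, 6.62 and 6.37 in pL2 mice at MRI (1.16 ± 0.33, adjusted p = 0.0572). MHC class II genes had a median of 0.86 with none of 6 called (limma; 3 at an unadjusted p below 0.05). Of 9 mast cell markers none was called (limma; 2 at an unadjusted p below 0.05). Tpsb2, a mast cell tryptase gene, had 6.67, 8.44 and 6.54 in IL8 mice and 5.44, 6.37 and 6.19 in pL2 mice (1.22 ± 0.59, adjusted p = 0.287), with IL8 array 2 well above the others. Markers of T cells, B cells, skeletal muscle, basal and suprabasal squamous cells, gastric and intestinal lining, tuft and enteroendocrine cells, liver, pancreas, fat, nerve and red blood cells, and interferon, hypoxia, cell cycle, immediate early and sex-linked genes, had no call, with list medians between -0.53 (skeletal muscle) and 0.58 (B and plasma cells).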
